A study of Danio rerio with 11 samples.

Results

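RNA from adult zebrafish brains with both copies of csf1rb mutated was compared with RNA from brains that kept 1 copy, in fish that all lacked an intact csf1ra. The comparison took all 3 libraries labelled csf1ra-/-;b-/- (double-mutant brains from here on) and all 3 labelled csf1ra-/-;b+/- (csf1rb-heterozygous brains), 6 of the 11 libraries of the series, over 16536 genes. Both groups are homozygous for the csf1ra mutation, so csf1rb is the only gene in which the labels separate them. The remaining libraries, 3 labelled csf1ra-/- and 2 wild-type controls, were used for the spread of each gene and as levels to read the others against. The labels give an age of about 8 months, the strain TLF x AB and the line mpeg1-GFP for every library; in that line the mpeg1 promoter, active in macrophages and microglia, drives a fluorescent protein. No treatment is labelled. The labels do not say what either mutation does to its transcript, whether a library comes from 1 fish or several, or whether the fish were siblings. Each p-value therefore measures how far these samples spread, and that spread may be technical.

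The CSF1 receptor is a receptor tyrosine kinase on the surface of macrophages and microglia, the resident macrophages of the brain, and its signal keeps these cells alive and dividing. It is activated by colony-stimulating factor 1 and by interleukin 34, which neurons and other brain cells make. Zebrafish carry a pair of receptor genes, csf1ra, which also acts in pigment cells, and csf1rb. Whole-brain RNA is a mixture of many cell types, so for every gene below fewer cells of a type and less RNA per cell cannot be told apart.

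The 6 libraries held 14.03 to 15.2 M reads, and levels are given as CPM, the reads of a gene relative to the depth of its library after the authors' scaling. A level of 1 CPM stood for 13.9 to 15.7 reads in them. Differences are on the log2(CPM + 1) scale, double mutant minus csf1rb-heterozygous, with the SE from limma, and a gene was called where the p adjusted over all 16536 genes was under 0.05. The mutant libraries that bear the number 2 in their labels, 1 in each mutant genotype, stood apart: their scores on the first principal component of all genes were 19.1 to 39.7, against -30.9 to 6.87 for the other 8 libraries. Counts and calls are therefore also given without them. Reads of 50 nucleotides can be shared between near-identical gene copies, so the levels of gstm.2, dpyda.3, itga2.3, cd74a, cd74b, mhc2dab and the clone-named genes are uncertain.

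The targeted gene did not separate the groups. csf1rb (ENSDARG00000053624) stood at 1.97, 2.52 and 2.08 CPM in double-mutant brains and at 3.83, 1.60 and 3.63 CPM in csf1rb-heterozygous brains. The lowest library of the 6 was a csf1rb-heterozygous one, and the groups overlapped. The log2 difference was -0.29 (SE 0.272, adjusted p = 1 by limma, 95% interval -0.88 to 0.31), and a two-sided exact permutation test over the 6 libraries gave p = 0.4, where 0.1 is the smallest it can give. The overlap came from csf1rb-heterozygous replicate 2. Without that library the log2 difference was -0.57, without csf1rb-heterozygous replicate 1 it was -0.13 and without replicate 3 it was -0.16. Without the mutant libraries numbered 2 it was -0.65 (adjusted p = 0.833), and none of these passed the test. In summed reads, 97 in double-mutant and 134 in csf1rb-heterozygous brains, the ratio of pooled CPM was 0.716 with a 95% counting interval of 0.546 to 0.937, which leaves out the spread between libraries. The csf1ra-/- libraries stood at 14.4, 8.42 and 10.7 CPM. With a test that was not passed and an overlap that rests on 1 library, the level of csf1rb RNA gives no check on which libraries carry the last intact copy.

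The other receptor and the ligands likewise gave no called difference. csf1ra stood at 0.127, 0 and 0.602 CPM in double-mutant brains and at 0.905, 0.976 and 0.584 CPM in csf1rb-heterozygous brains, from 11 and 36 reads in all. The difference was -0.57 (SE 0.364, adjusted p = 1 by limma, 95% interval -1.37 to 0.22), and the exact permutation test gave p = 0.2. The ligand gene csf1a averaged 3.38 ± 0.472 CPM in double-mutant and 3.43 ± 0.532 CPM in csf1rb-heterozygous brains (SD, n = 3 each). The interval of its log2 difference ran from -0.50 to 0.47. For il34, the interleukin 34 gene, the means were 3.35 ± 0.614 CPM in double-mutant and 3.13 ± 0.987 CPM in csf1rb-heterozygous brains, with an interval of -0.36 to 0.55. Another ligand gene, csf1b, was not analysed here.

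Across all genes, 14 of 16536 were called, 0.0847% of those tested. In double-mutant brains 6 rose (0.0363%) and 8 fell (0.0484%), each by at least 1 log2 unit, and for each of the 14 the double-mutant and csf1rb-heterozygous libraries did not overlap. Over all genes 4.83% were lower and 4.26% higher without overlap. A test on so few libraries favours such genes, so the lack of overlap adds no support to the calls. An unadjusted p under 0.05 was found for 864 genes (5.22%), 425 higher and 439 lower. On simulated data of the same depth and spread, the same test recovered 40 of 67 genes changed by 1 log2 unit (59.7%). It recovered 61 of 67 changed by 2 (91.0%) and 64 of 66 changed by 3 (97.0%). Beside these recovered genes it called 9 unchanged ones, a count that cannot be set against the 14 calls here. The simulated libraries were drawn independently, without the shift of those numbered 2, and the changed genes were drawn from all levels. With so many changed genes the adjusted threshold is easier to pass than with 14 calls, so these shares may overstate the recovery in this comparison. Without the mutant libraries numbered 2, 5 of the 14 calls were kept: gstm.2, ssx2ipb, itga2.3, si:dkey-199f5.6 and CT956057.1. The number called was 36 without double-mutant replicate 3, 8 without csf1rb-heterozygous replicate 1 and 9 without csf1rb-heterozygous replicate 2. Clone-named genes made up 8 of the 14.

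**Figure D1:**
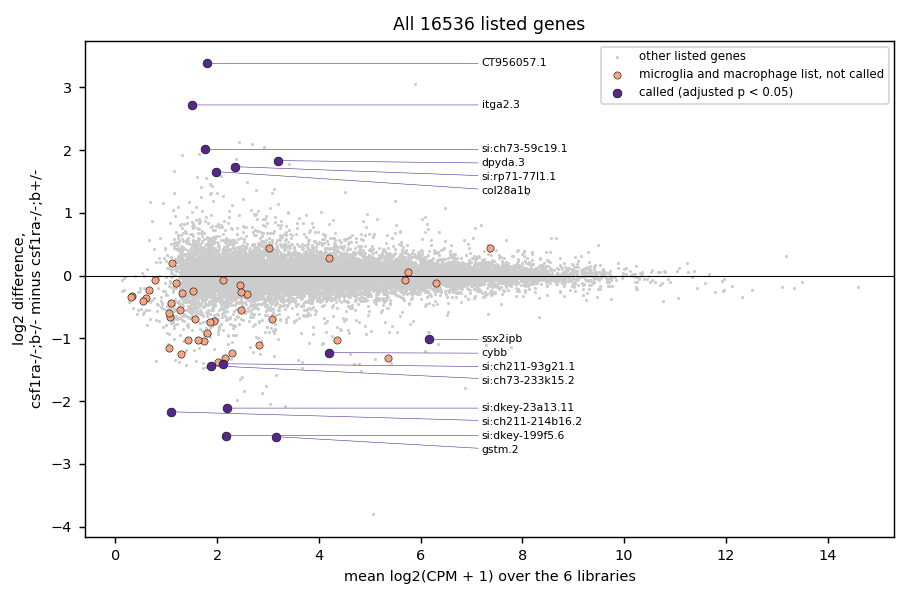
Log2 difference (double mutant minus csf1rb-heterozygous) against the mean log2(CPM + 1) over the 6 libraries, for 16536 genes. Purple points are the 14 called genes, orange points the uncalled members of the microglia and macrophage list, most of which lie below 0.

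The strongest call was gstm.2, named as a mu-class glutathione S-transferase, an enzyme family that couples glutathione to reactive compounds. It stood at 2.41, 2.52 and 3.15 CPM in double-mutant brains and at 20.7, 20.4 and 21.2 CPM in csf1rb-heterozygous brains. Every double-mutant library was far below every csf1rb-heterozygous one, and the csf1ra-/- libraries were higher still, at 46.6, 45.3 and 48.0 CPM, with the controls at 16.5 and 19.8 CPM. gstm.2 fell by 2.57 on the log2 scale (SE 0.121, adjusted p = 2.67e-06), and it was called in all 19 alternatives. Its neighbours in name did not follow: gstm.1 averaged 101.5 ± 17.98 CPM in double-mutant and 109.96 ± 10.9 CPM in csf1rb-heterozygous brains (-0.12). gstm.3 averaged 2.87 ± 0.0114 CPM in double-mutant and 2.52 ± 0.569 CPM in csf1rb-heterozygous brains (0.15), and neither was called. These paralogs, like the other family members below that were not called, were looked up after the calls were seen.

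cybb was the only called gene of the microglia and macrophage list. It encodes the membrane-bound catalytic subunit of the NADPH oxidase with which phagocytes make superoxide. In double-mutant brains it stood at 9.02, 11.4 and 12.99 CPM, against 27.9, 28.7 and 25.03 CPM in csf1rb-heterozygous brains. The csf1ra-/- libraries, at 25.8, 21.2 and 23.2 CPM, and the controls, at 25.4 and 26.2 CPM, lay close to the csf1rb-heterozygous ones, so the double-mutant libraries alone were low. cybb fell by 1.23 on the log2 scale (SE 0.137, adjusted p = 0.0044), with 495 reads in double-mutant and 1198 in csf1rb-heterozygous brains. The call was kept in each of the 6 fits with 1 of these libraries left out (adjusted p from 0.0056 to 0.0373), but not without the mutant libraries numbered 2, where the log2 difference was -1.21 (adjusted p = 0.0766). Neutrophils use this oxidase too. Of the 12 symbols on the neutrophil list 6 were listed, with 0 called. Of all genes 0.0847% were called, so a count of 0 does not set the list apart. The list had a median log2 difference of -0.15. Its summed levels were 25.97, 30.8 and 34.005 CPM in double-mutant and 39.2, 23.6 and 33.1 CPM in csf1rb-heterozygous brains. The part of neutrophils in the cybb result was not tested. On that list lyz, the lysozyme gene, stood at 0.508, 0.863 and 0.134 CPM in double-mutant and 2.92, 0.976 and 1.751 CPM in csf1rb-heterozygous brains (-0.91, adjusted p = 0.681).

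The other oxidase genes given here did not pass the test. cyba, the membrane partner of cybb, averaged 3.23 ± 0.208 CPM in double-mutant and 3.46 ± 0.488 CPM in csf1rb-heterozygous brains, with a 95% interval of the log2 difference from -0.52 to 0.38. For the cytosolic subunit genes ncf1 and ncf4 the log2 differences were -0.55 and -0.36, each with an adjusted p of 1. rac2, the small GTPase of the complex, stood at 1.08, 1.44 and 3.35 CPM in double-mutant and 4.25, 3.83 and 3.05 CPM in csf1rb-heterozygous brains (-0.74, adjusted p = 0.93), and its groups overlapped. ncf4 was added after its values were seen.

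ssx2ipb, which encodes a protein of centrosomes and cell junctions, had 46.0, 51.3 and 50.9 CPM in double-mutant and 95.8, 102.3 and 104.2 CPM in csf1rb-heterozygous brains. The double-mutant libraries stood near the controls, at 43.1 and 43.4 CPM, and the csf1ra-/- libraries were the highest, at 113.9, 144.3 and 122.3 CPM. ssx2ipb fell by 1.02 (SE 0.098, adjusted p = 0.00158) and was called in all 19 alternatives. Its paralog ssx2ipa averaged 9.72 ± 0.451 CPM in double-mutant and 10.2 ± 0.303 CPM in csf1rb-heterozygous brains (-0.06, adjusted p = 1).

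Among the called genes that fell, 5 have only clone names, and no function is given for them here. si:dkey-199f5.6 stood at 1.02, 1.37 and 0.335 CPM in double-mutant and 12.2, 7.74 and 9.99 CPM in csf1rb-heterozygous brains, and fell by 2.55 (SE 0.247, adjusted p = 0.00158). si:dkey-23a13.11 stood at 1.08, 1.22 and 1.34 CPM in double-mutant and 9.05, 6.27 and 10.9 CPM in csf1rb-heterozygous brains (-2.11, SE 0.252, adjusted p = 0.00596), a call lost without csf1rb-heterozygous replicate 1 (adjusted p = 0.0542). Reads of si:ch211-214b16.2 were at 0 in all 3 double-mutant libraries, against 5.01, 3.21 and 2.59 CPM in csf1rb-heterozygous brains, 158 reads in all. With the floor set at 3 reads over the double-mutant group, its level there was at least 53.2-fold lower (adjusted p = 0.0264). The csf1ra-/- libraries, at 3.00, 2.49 and 6.48 CPM, and the controls, at 5.26 and 2.85 CPM, all held it, so the double-mutant group is the only one of the 4 in which it was not detected. A gene of the same clone, si:ch211-214b16.4, stood at 2.41, 5.39 and 2.01 CPM in double-mutant and 21.4, 15.1 and 11.9 CPM in csf1rb-heterozygous brains, just short of a call (-2.05, adjusted p = 0.0653).

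Smaller falls were called for si:ch73-233k15.2 and si:ch211-93g21.1. The first had 1.40, 1.22 and 1.14 CPM in double-mutant and 5.50, 5.65 and 4.22 CPM in csf1rb-heterozygous brains (-1.44, SE 0.211, adjusted p = 0.0336). The second had 0.952, 2.08 and 2.14 CPM in double-mutant and 5.50, 6.14 and 6.55 CPM in csf1rb-heterozygous brains (-1.40, SE 0.212, adjusted p = 0.0395). These calls depended on which libraries entered the fit: si:ch73-233k15.2 was called in 0 of the 6 fits with 1 library left out (adjusted p from 0.0607 to 0.167), and si:ch211-93g21.1 in 1 of 6, that without double-mutant replicate 3 (otherwise 0.086 to 0.168). si:ch211-214b16.2 was also called only without double-mutant replicate 3 (adjusted p = 0.0488, and otherwise 0.0502 to 0.126).

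Of the 6 genes that rose, CT956057.1 and itga2.3 were nearly silent in every other genotype. CT956057.1 stood at 8.06, 23.4 and 5.49 CPM in double-mutant brains and at 0, 0 and 0.259 CPM in csf1rb-heterozygous brains, and no csf1ra-/- or control library exceeded 0.162 CPM. Its 534 and 4 reads gave a ratio of 132.1 (95% counting interval 51.3 to 486.6; log2 difference 3.38, SE 0.386, adjusted p = 0.0044). itga2.3 is named as an integrin alpha 2 gene, a family whose products bind collagen. It stood at 8.83, 4.89 and 5.76 CPM in double-mutant and 0.0696, 0.0697 and 0.195 CPM in csf1rb-heterozygous brains (2.72, SE 0.238, adjusted p = 0.00108), with 0.406, 0.293 and 0.437 CPM in csf1ra-/- and 0.592 and 0.0771 CPM in control brains. In both genes the double-mutant libraries stood alone above all 8 others. The collagen-receptor gene itga1 averaged 28.4 ± 6.90 CPM in double-mutant and 27.4 ± 4.94 CPM in csf1rb-heterozygous brains and was not called (0.03).

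The other 4 genes that rose were at levels near those of the controls in double-mutant brains and low in csf1rb-heterozygous and csf1ra-/- brains. dpyda.3 belongs to the dihydropyrimidine dehydrogenase genes, whose enzyme starts the breakdown of the pyrimidine bases uracil and thymine. It stood at 19.4, 15.7 and 14.1 CPM in double-mutant, 3.06, 3.56 and 5.12 CPM in csf1rb-heterozygous, 4.14, 3.22 and 4.37 CPM in csf1ra-/- and 12.6 and 18.98 CPM in control brains. dpyda.3 rose by 1.83 against csf1rb-heterozygous brains (SE 0.21, adjusted p = 0.0044). The nearby-named dpyda.1 stood at 6.16, 3.52 and 3.41 CPM in double-mutant and 0.626, 0.349 and 1.49 CPM in csf1rb-heterozygous brains, without overlap, but did not pass (1.57, adjusted p = 0.0945), and dpydb averaged 5.72 ± 0.46 CPM in double-mutant and 6.54 ± 0.881 CPM in csf1rb-heterozygous brains (-0.16).

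col28a1b, a collagen XXVIII gene of the extracellular matrix, stood at 4.76, 7.69 and 5.89 CPM in double-mutant and 1.60, 0.837 and 1.297 CPM in csf1rb-heterozygous brains (1.66, SE 0.255, adjusted p = 0.0429), with controls at 5.92 and 3.63 CPM. It was called in 0 of the 6 fits with 1 library left out (adjusted p from 0.0715 to 0.179). si:rp71-77l1.1 stood at 7.81, 10.2 and 7.16 CPM in double-mutant and 1.39, 2.09 and 1.95 CPM in csf1rb-heterozygous brains (1.74, SE 0.191, adjusted p = 0.0044). si:ch73-59c19.1 stood at 4.32, 10.1 and 4.28 CPM in double-mutant and 0.696, 0.767 and 0.584 CPM in csf1rb-heterozygous brains (2.01, SE 0.268, adjusted p = 0.0159). Leaving out any csf1rb-heterozygous replicate ended the call for si:ch73-59c19.1 (adjusted p = 0.0781, 0.0609 and 0.0722 without replicates 1, 2 and 3).

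**Figure D2:**
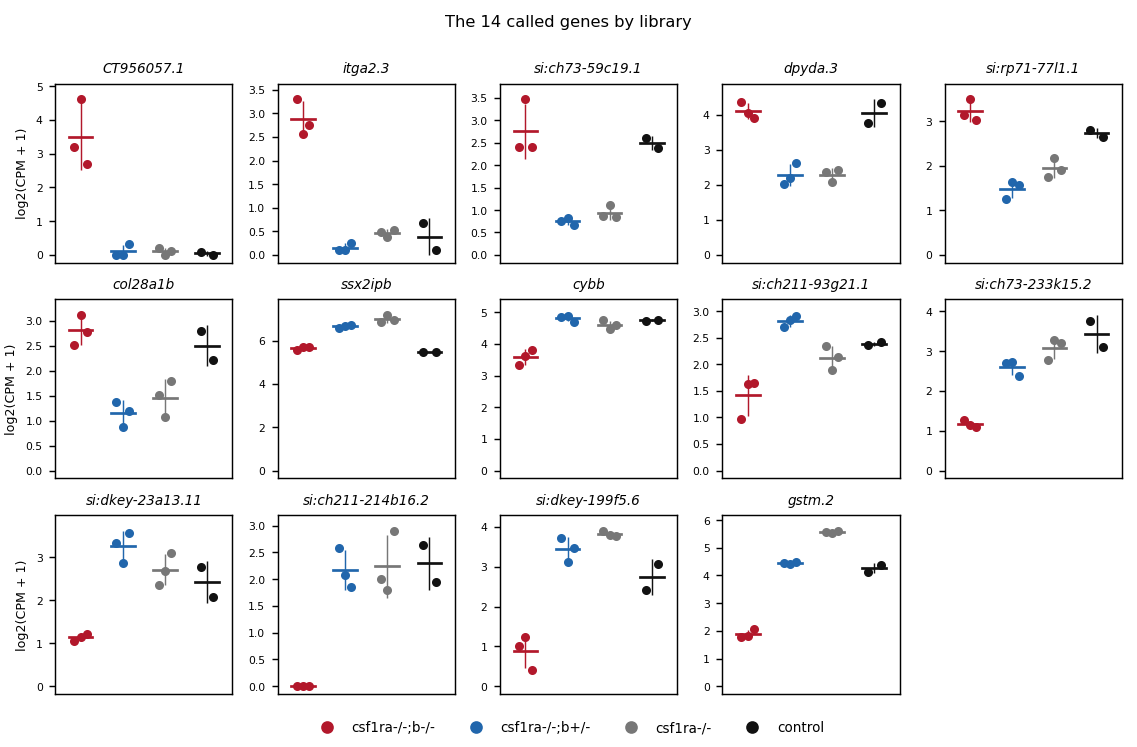
Log2(CPM + 1) of the 14 called genes in each library (points), with the mean (horizontal bar) and SD (vertical line) of each genotype; the vertical scale differs between panels. For the 5 genes of the top row and for col28a1b the double-mutant libraries lie above the csf1rb-heterozygous ones, and for the other 8 genes they are lower; csf1ra-/- (grey) and control (black) libraries show which of the 2 groups lies nearer the other genotypes.

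Set against the controls, each called gene was sorted by which of the 2 group means lay nearer the control mean. This sorting puts any gene in 1 of 2 classes. For 5 of the 14 the double-mutant mean was nearer to the control mean than the csf1rb-heterozygous mean was: dpyda.3, col28a1b, si:ch73-59c19.1 and si:rp71-77l1.1 among those that rose, and ssx2ipb among those that fell. For the other 9 the csf1rb-heterozygous mean was nearer, and these include 7 of the 8 genes that fell. Over all genes the double-mutant mean was nearer to control for 50.1%. In the comparisons with control, 1.16% of genes were called in double-mutant and 0.671% in csf1rb-heterozygous brains. dpyda.3 differed from control by 0.06 in double-mutant (adjusted p = 0.925) and by -1.77 in csf1rb-heterozygous brains (adjusted p = 0.00788), and cybb by -1.16 in double-mutant (adjusted p = 0.00465) and by 0.07 in csf1rb-heterozygous brains (adjusted p = 0.85). The same 2 control libraries enter both comparisons.

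The authors' deposited table of this comparison, from their own test, called 17 genes at an adjusted p under 0.05, 7 higher and 10 lower, and 13 of these were among the 14. In the authors' deposited table cybb had a log2 fold change of -1.29 (adjusted p = 0.00564) and gstm.2 one of -2.94 (adjusted p = 3.1e-06). si:ch211-93g21.1 was the exception, with an adjusted p of 0.0535 in the authors' deposited table. Called in the authors' deposited table alone were ppp1r13bb, si:dkey-22i16.9, a clone-named gene whose symbol more than 1 listed gene bears, and ccl33.3, a chemokine gene with 4 reads in double-mutant and 80 in csf1rb-heterozygous brains.

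Below the threshold, the genes next in rank were of mixed function. ppp1r13bb, of a family that regulates apoptosis, stood at 148.4, 149.9 and 141.3 CPM in double-mutant and 273.6, 374.6 and 332.7 CPM in csf1rb-heterozygous brains (-1.14, adjusted p = 0.0502), while its paralog ppp1r13ba averaged 93.1 ± 4.88 CPM in double-mutant and 93.7 ± 6.98 CPM in csf1rb-heterozygous brains (-0.01). loxl2b, an enzyme gene of collagen cross-linking, stood at 7.05, 2.23 and 27.3 CPM in double-mutant and 115.8, 119.6 and 139.2 CPM in csf1rb-heterozygous brains (-3.80, SE 0.632, adjusted p = 0.0622). The double-mutant libraries differed among themselves by more than in the called genes, and control libraries stood as far apart as 99.6 and 28.2 CPM. Higher without a call were ahr1a, an aryl hydrocarbon receptor gene (1.94, adjusted p = 0.0769), kmt2bb, a histone methyltransferase gene (0.81, adjusted p = 0.0832), ANKRD34A (0.55, adjusted p = 0.0618) and the clone-named si:dkey-22i16.9 (1.92, adjusted p = 0.0546), CU611036.2 (1.85, adjusted p = 0.0581) and CABZ01090749.1 (1.14, adjusted p = 0.0803).

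Genes of microglia and macrophages were lower in double-mutant brains as a list, though cybb alone passed the test. Of 48 symbols on the list 42 were listed, and p2ry12, tyrobp, cd68, mfap4, ctss2.1 and vav1 were not analysed here. Below 0 were 37 of the 42, with a median log2 difference of -0.48, against 48.5% of genes below 0 and a median of 0.01 over all genes. Of the 42, 1 fell by the test (0.0484% of all genes did) and 0 rose. An unadjusted p under 0.05 was found for 15 lower members, where 2.65% of all genes had one. In 17 members the double-mutant libraries were all below the csf1rb-heterozygous ones, where 4.83% of all genes were. The list was chosen with earlier results of these data known, and genes of the same cells can vary together. These counts therefore describe the list and do not test it. The list mean of log2(CPM + 1) was 1.99, 1.78 and 2.41 in double-mutant and 2.69, 2.56 and 2.54 in csf1rb-heterozygous libraries, without overlap, but double-mutant replicate 3 came close. The csf1ra-/- libraries had 3.13, 3.07 and 3.53 and the controls 4.31 and 3.57. Of the 35 lists described here, 3 had double-mutant means all below the csf1rb-heterozygous ones. Without double-mutant replicate 3 the median was -0.67, and without the mutant libraries numbered 2 it was -0.33, with 33 of 42 below 0.

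**Figure D3:**
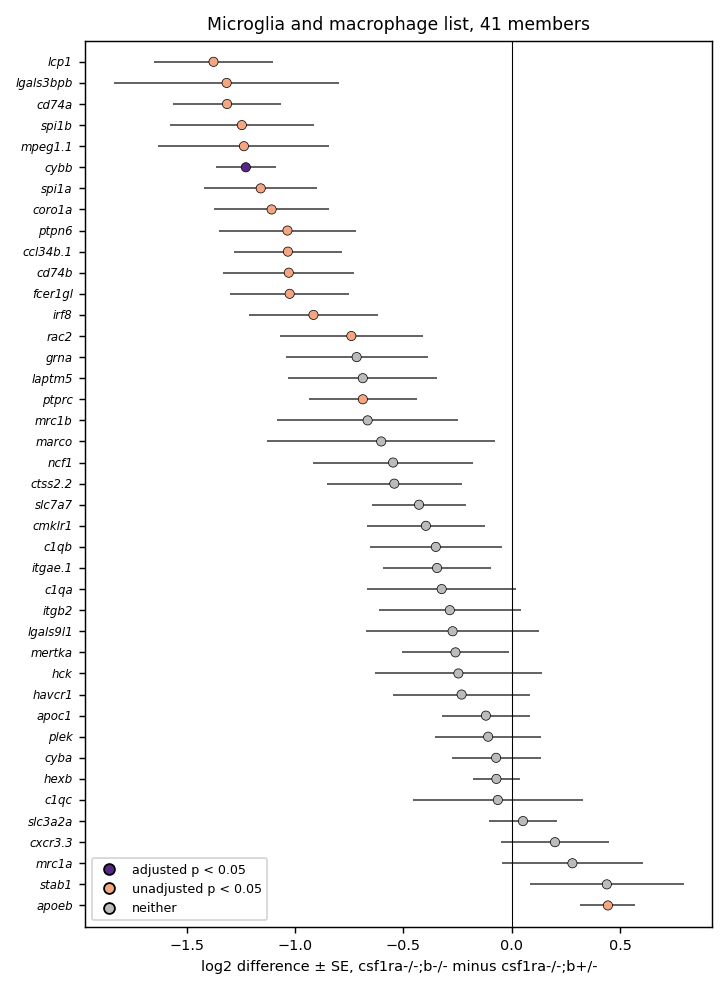
Log2 difference (double mutant minus csf1rb-heterozygous) with its SE for 41 of the 42 listed members of the microglia and macrophage list, sorted by size. Purple marks cybb, the only member called; orange marks members with an unadjusted p under 0.05; 36 of the 41 lie below 0 and apoeb lies highest, at 0.44.

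The 3 transcription factor genes of the list had a median of -1.16. spi1a and spi1b encode zebrafish PU.1 factors, which set up the myeloid lineage, and irf8 encodes a factor needed for microglia. spi1b stood at 0.508, 0.503 and 0.736 CPM in double-mutant and 4.45, 1.88 and 2.33 CPM in csf1rb-heterozygous brains (-1.25, SE 0.331, adjusted p = 0.416), from 26 and 127 reads. spi1a stood at 0.19, 0.288 and 0.736 CPM in double-mutant and 2.85, 1.39 and 2.205 CPM in csf1rb-heterozygous brains (-1.16, adjusted p = 0.249), from 18 and 95 reads. irf8 stood at 1.71, 1.08 and 1.87 CPM in double-mutant and 5.71, 3.76 and 2.40 CPM in csf1rb-heterozygous brains (-0.91, adjusted p = 0.625). None of these 3 genes overlapped between the groups, where 4.83% of all genes were lower without overlap, and none passed the test.

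Among the actin and leukocyte genes the differences varied. lcp1, the actin-bundling protein of leukocytes, stood at 1.08, 1.22 and 2.41 CPM in double-mutant and 5.36, 5.72 and 5.45 CPM in csf1rb-heterozygous brains (-1.38, SE 0.275, adjusted p = 0.145). coro1a, an actin-binding coronin, stood at 3.56, 3.31 and 4.69 CPM in double-mutant and 9.19, 10.4 and 8.62 CPM in csf1rb-heterozygous brains (-1.11, adjusted p = 0.3). ptprc, which encodes the pan-leukocyte phosphatase CD45, stood at 4.06, 6.18 and 7.23 CPM in double-mutant and 10.4, 8.99 and 9.99 CPM in csf1rb-heterozygous brains (-0.69, adjusted p = 0.726). In all 3 the double-mutant libraries were all below the csf1rb-heterozygous ones, where 4.83% of all genes were. The csf1rb-heterozygous libraries of these 3 lay close together. Over the 6 members that are phosphatases, kinases, Fc receptor chains or leukocyte integrins the median was -0.52. All 6 were below 0, and 4 of them did not overlap between the groups. Over the 4 actin cytoskeleton members the median was -0.92, with pleckstrin (plek) at -0.11, and 2 of the 4 did not overlap.

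Both invariant chain genes of MHC class II, cd74a and cd74b, which guide class II molecules to the endosome, were lower. cd74a stood at 24.4, 20.6 and 30.7 CPM in double-mutant and 65.8, 66.0 and 58.8 CPM in csf1rb-heterozygous brains (-1.31, SE 0.249, adjusted p = 0.106). cd74b stood at 12.9, 9.63 and 19.1 CPM in double-mutant and 30.8, 26.3 and 28.1 CPM in csf1rb-heterozygous brains (-1.03, SE 0.303, adjusted p = 0.537). Neither was called in the fit of all genotypes, and the fit of the 6 libraries alone called cd74a besides cybb. mhc2dab, a class II beta chain, ran the other way, at 1.84, 1.73 and 0.803 CPM in double-mutant and 0.0696, 0.139 and 0 CPM in csf1rb-heterozygous brains. Its 65 and 3 reads gave a ratio of 21.4 (95% counting interval 7.02 to 106.7; log2 difference 1.17, adjusted p = 0.465), and it was lowest in csf1rb-heterozygous brains of all 4 genotypes, with 6.81, 5.57 and 9.46 CPM in csf1ra-/- and 31.1 and 11.5 CPM in control brains. Over the 13 listed antigen presentation genes the median was -0.02, with 7 below 0. In either direction 0 were called, where 0.0847% of all genes were called.

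Several other microglial genes stood below both control libraries in every library of both groups. The complement C1q chain genes c1qa, c1qb and c1qc, which microglia supply in the brain, had log2 differences of -0.32, -0.35 and -0.06. c1qa stood at 0.0635, 0 and 0.335 CPM in double-mutant, 0.348, 0.418 and 0.454 CPM in csf1rb-heterozygous, 1.78, 1.17 and 2.84 CPM in csf1ra-/- and 8.68 and 2.47 CPM in control brains. The double-mutant libraries were all below the csf1rb-heterozygous ones, from 6 and 18 reads, a ratio of 0.33 (95% counting interval 0.107 to 0.867). The log2 difference did not pass the test (adjusted p = 1, 95% interval -1.08 to 0.43). c1qb stood at 0.317, 0.288 and 0.402 CPM in double-mutant and 0.766, 0.837 and 0.519 CPM in csf1rb-heterozygous brains, also without overlap and without a call (adjusted p = 1). Its 15 and 31 reads gave a ratio of 0.479 (0.24 to 0.914). Over all genes 4.83% were lower without overlap. c1qc overlapped, at 0.508, 0.288 and 1.41 CPM in double-mutant and 0.835, 0.697 and 0.713 CPM in csf1rb-heterozygous brains. lgals9l1, a galectin gene, averaged 1.41 ± 1.16 CPM in double-mutant and 1.73 ± 0.268 CPM in csf1rb-heterozygous brains (-0.27, 95% interval -1.15 to 0.60), against 45.2 ± 33.28 CPM in control brains (SD, n = 2). ccl34b.1, a chemokine gene, stood at 0.825, 0.431 and 1.54 CPM in double-mutant and 2.37, 3.70 and 2.59 CPM in csf1rb-heterozygous brains (-1.03, SE 0.25, adjusted p = 0.316), and lgals3bpb, which encodes a galectin-binding protein, at 1.84, 0.575 and 4.02 CPM in double-mutant and 5.85, 7.25 and 5.12 CPM in csf1rb-heterozygous brains (-1.32, adjusted p = 0.83).

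Double-mutant replicate 3 held more of some macrophage genes than the other double-mutant libraries. mpeg1.1, the pore-forming protein of macrophages whose promoter drives the transgene, stood at 1.65, 1.01 and 5.02 CPM in double-mutant and 9.95, 5.44 and 4.93 CPM in csf1rb-heterozygous brains (-1.24, adjusted p = 0.616), and replicate 3 overlapped the csf1rb-heterozygous libraries. marco, a scavenger receptor gene, stood at 0.444, 0.144 and 1.87 CPM in double-mutant and 1.32, 2.51 and 1.04 CPM in csf1rb-heterozygous brains (-0.60). The same library held 40.2 CPM of the immunoglobulin gene ighv1-4, against 3.81 and 0.934 CPM in the other double-mutant and 4.38, 2.02 and 1.297 CPM in csf1rb-heterozygous libraries. Of 23 lymphocyte symbols 6 were listed and 0 called, where 0.0847% of all genes were called. Of the 6 uptake receptors, stab1 and mrc1a had log2 differences above 0 (0.44 and 0.28), and 0 of the 6 had an unadjusted p under 0.05. slc7a7, an amino acid transporter gene of microglia, averaged 0.861 ± 0.385 CPM in double-mutant and 1.47 ± 0.19 CPM in csf1rb-heterozygous brains (-0.43, adjusted p = 1).

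Some members did not follow the rest of the list. hexb, a lysosomal hexosaminidase gene, averaged 49.3 ± 4.46 CPM in double-mutant and 51.9 ± 5.24 CPM in csf1rb-heterozygous brains (-0.07, 95% interval -0.31 to 0.17). apoeb, an apolipoprotein E gene, was the only member above 0 with an unadjusted p under 0.05 and the only one with all double-mutant libraries above the csf1rb-heterozygous ones (4.26% of all genes), at 203.4, 153.8 and 223.6 CPM in double-mutant and 124.5, 152.3 and 145.8 CPM in csf1rb-heterozygous brains (0.44, adjusted p = 0.515). For apoc1 the log2 difference was -0.12.

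**Figure D4:**
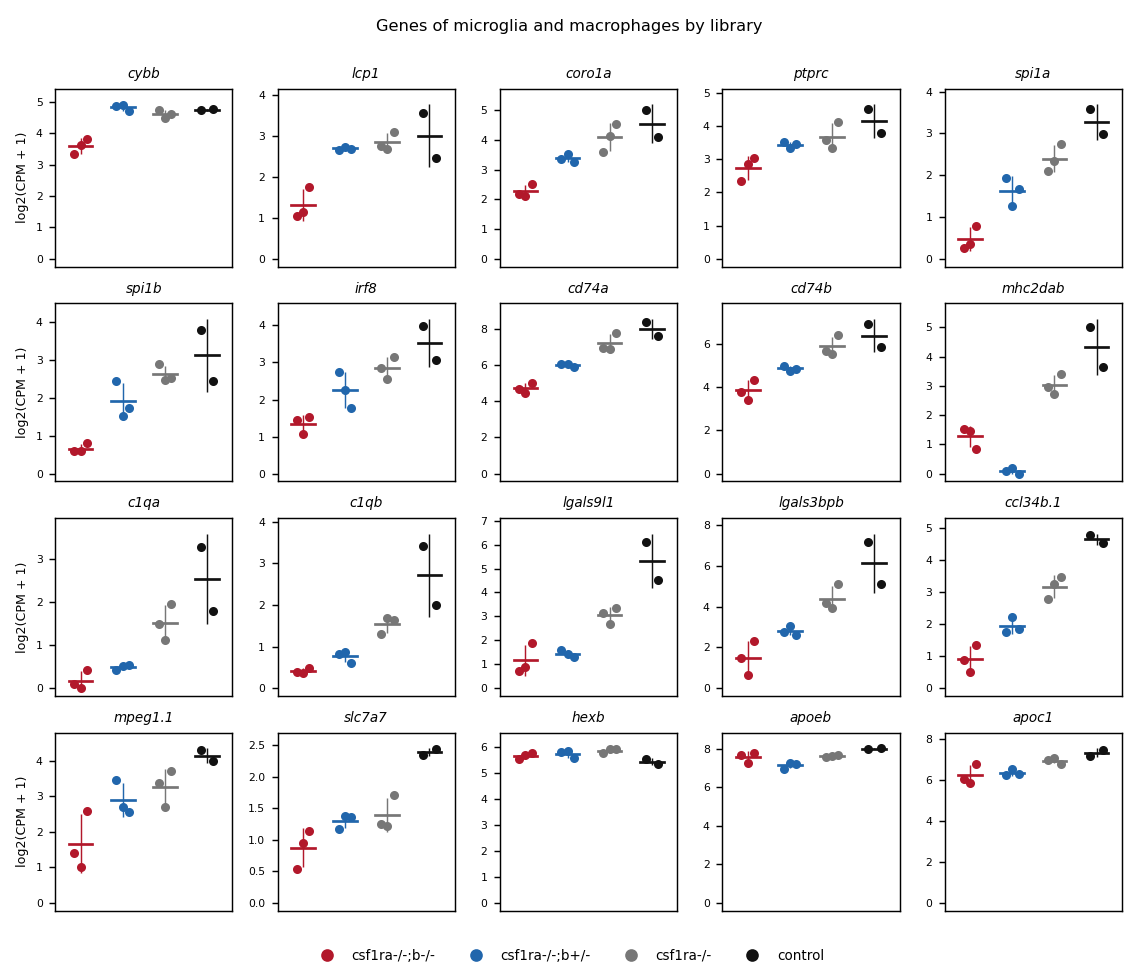
Log2(CPM + 1) of genes of microglia and macrophages, and of mhc2dab, in each library (points), with the mean (horizontal bar) and SD (vertical line) of each genotype; the vertical scale differs between panels. Lower without overlap in double-mutant than in csf1rb-heterozygous libraries are spi1a, spi1b, irf8, lcp1, coro1a, both cd74 genes, cybb, ptprc, ccl34b.1, lgals3bpb, slc7a7, c1qa and c1qb (4.83% of all genes). Higher without overlap are mhc2dab and apoeb (4.26%). In both groups c1qa, c1qb and lgals9l1 are low, and hexb libraries of all genotypes lie close together.

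The step from 1 intact csf1rb copy to none was compared with the step from 2 copies to 1, csf1rb-heterozygous minus csf1ra-/-, in the same fit. The csf1rb-heterozygous libraries enter both steps. The difference between the steps was called for 0 genes by limma, where 657 genes (3.97%) had an unadjusted p under 0.05 and the lowest adjusted p was 0.0583. edgeR's quasi-likelihood test called 4 and DESeq2 42. The lowest adjusted p was shared by itga2.3, si:dkey-22i16.9 and mhc2dab, among others. mhc2dab differed by 1.17 in the step to no copy and by -2.93 in the step to 1 copy (adjusted p = 0.00415), a difference between steps of 4.1005 (SE 0.561, adjusted p = 0.0583). For cybb the step to no copy was -1.23 and that to 1 copy 0.21 (difference -1.44, SE 0.238, adjusted p = 0.106), and for gstm.2 they were -2.57 and -1.13 (difference -1.44, SE 0.21, adjusted p = 0.0774). For csf1rb itself they were -0.29 and -1.62 (difference 1.34, SE 0.471, adjusted p = 0.976). The median over microglia and macrophage members was -0.48 in the step to no copy and -0.65 in the step to 1 copy, in which 0.187% of all genes were called.

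Beyond the microglia, 33 of the other 34 lists had 0 called members, and the exception held gstm.2. Of all genes 0.0847% were called, and at a share that low a count of 0 does not set a list apart. Medians close to that of all genes were found for pan-neuronal and synaptic genes (-0.02, 27 listed), excitatory neurons (0.01, 24), inhibitory neurons (0.00, 24) and radial glia (0.03, 26). Oligodendrocyte and myelin genes had a median of -0.10, with 15 of 22 below 0. The first quartile of all genes was -0.098. In the pan-neuronal list elavl3, an RNA-binding protein gene of neurons, was low in a lone library, at 125.5, 349.2 and 378.7 CPM in double-mutant and 441.9, 328.9 and 457.6 CPM in csf1rb-heterozygous brains (-0.66, adjusted p = 1). Interferon response genes had a median of -0.04 with 11 of 18 below 0, and helz2, a helicase gene induced by interferon, was the lowest (-0.88, adjusted p = 0.787). Complement genes had a median of -0.12 (7 of 10 below 0) and inflammatory signals one of 0.11 (2 of 9 below 0), with the chemokine gene ccl19a.1 at 1.65, 1.65 and 4.55 CPM in double-mutant and 6.96, 7.04 and 4.54 CPM in csf1rb-heterozygous brains (-1.06, adjusted p = 0.534).

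Metabolic lists moved by small amounts. Cholesterol synthesis genes were below 0 for 23 of 28, with a median of -0.24, and in 8 of them the double-mutant libraries were all below the csf1rb-heterozygous ones, where 4.83% of all genes were. An unadjusted p under 0.05 was found for 5 of them, all lower, where 2.65% of all genes had one, and 0 were called. Their list means, 4.09, 4.06 and 4.09 in double-mutant and 4.31, 4.35 and 4.21 in csf1rb-heterozygous libraries, did not overlap. Of the 35 lists, 3 had double-mutant means all lower. The others were microglia and macrophages, and glutathione and xenobiotic response. The glutathione list holds the called gstm.2, at -2.57. Its median was -0.09, with 13 of 22 below 0, where 48.5% of all genes were. How far its list means rest on gstm.2 was not tested. ldlrb, a lipoprotein receptor gene, averaged 20.3 ± 1.64 CPM in double-mutant and 28.5 ± 2.96 CPM in csf1rb-heterozygous brains (-0.47, adjusted p = 0.64), and insig1, which holds back sterol synthesis, 55.9 ± 2.19 CPM in double-mutant and 72.9 ± 7.25 CPM in csf1rb-heterozygous brains (-0.37, adjusted p = 0.749). All 13 genes of the mitochondrial genome were below 0, with a median of -0.19 and 0 called; they share 1 genome, and their list means were 10.5, 11.02 and 10.6 in double-mutant and 10.999, 11.008 and 10.8 in csf1rb-heterozygous libraries. Iron handling genes were above 0 for 9 of 13, with a median of 0.10. An unadjusted p under 0.05 was found for 3, all higher, where 2.57% of all genes had one. In 3 the double-mutant libraries were all higher (4.26% of all genes) and in 1 all lower (4.83%). The list means, 4.79, 4.75 and 4.90 in double-mutant and 4.68, 4.49 and 4.65 in csf1rb-heterozygous libraries, did not overlap. Of the 35 lists, 1 had double-mutant means all higher. steap4, a metal reductase gene, stood at 12.6, 14.7 and 11.9 CPM in double-mutant and 8.00, 2.65 and 3.76 CPM in csf1rb-heterozygous brains (1.38, adjusted p = 0.256). tfa (transferrin) was at 0.78 and cp (ceruloplasmin) at 0.61, and none was called.

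Lists of tissue next to the brain varied by library. Retina and pineal genes were above 0 for 22 of 23, with a median of 0.62, the largest of the 35 lists. Their list means were 2.81, 0.778 and 3.38 in double-mutant and 2.25, 2.22 and 0.909 in csf1rb-heterozygous libraries, so 1 library of each of these groups held little of these transcripts and the groups overlapped, and 0 members had an unadjusted p under 0.05. Endothelial and blood-brain barrier genes were below 0 for 21 of 26 (median -0.18, 0 called), with list means of 3.60, 3.17 and 3.80 in double-mutant and 3.82, 3.56 and 3.78 in csf1rb-heterozygous libraries. The tight junction gene cldn5b stood at 1.21, 1.08 and 1.205 CPM in double-mutant and 2.23, 3.00 and 2.205 CPM in csf1rb-heterozygous brains (-0.68, adjusted p = 0.44). Fibroblast and meningeal genes had a median of 0.18, with col1a1b, a collagen I gene, at 15.2, 20.9 and 35.9 CPM in double-mutant and 10.2, 10.1 and 11.6 CPM in csf1rb-heterozygous brains (1.02, adjusted p = 0.429). The hypothalamic neuropeptide list, of genes from within the brain, had a median of -0.09 (24 listed). On it gnrh3, a gonadotropin-releasing hormone gene, stood at 10.4, 10.9 and 8.77 CPM in double-mutant and 1.88, 3.42 and 4.99 CPM in csf1rb-heterozygous brains (1.37, adjusted p = 0.249). The growth hormone gene gh1 was listed at 0, 0.575 and 0 CPM in double-mutant and at 7.17, 0 and 0 CPM in csf1rb-heterozygous brains, so its log2 difference of -0.79 rests on csf1rb-heterozygous replicate 1.

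**Figure D5:**
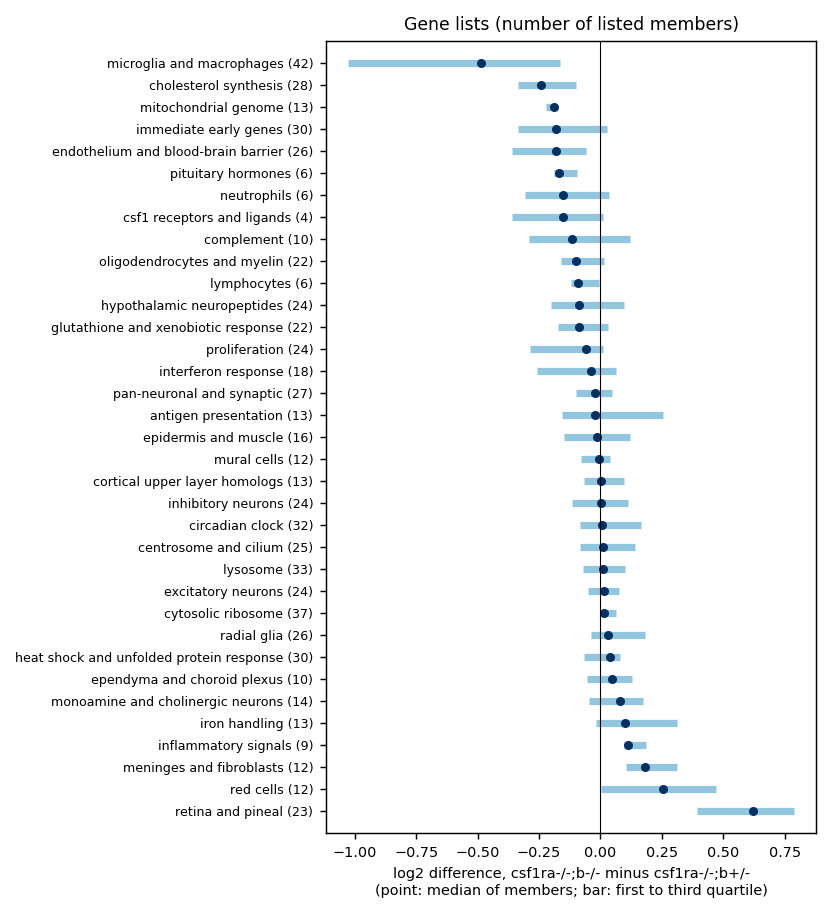
Median (point) and interquartile range (bar) of the log2 differences, double mutant minus csf1rb-heterozygous, in 35 gene lists, with the number of listed members in parentheses. Microglia and macrophages have the lowest median, -0.48, and retina and pineal the highest, 0.62; neuronal lists lie near 0.

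The called genes were also placed on chromosomes, to see how they lie relative to csf1rb and csf1ra. Of the 16536 listed genes 14115 (85.4%) could be placed by symbol with RefSeq's annotation of another genome build, GRCz12tu. Among the 14 called genes 7 were placed: gstm.2 on chromosome 8, si:dkey-23a13.11 on 7, cybb on 11, ssx2ipb on 22, si:ch211-214b16.2 on 3, and col28a1b and si:rp71-77l1.1 both on 16. On chromosome 21, which carries csf1rb, 0 of 551 genes were called, and on chromosome 14, which carries csf1ra, 0 of 512. Of all genes 0.0847% were called, and at a share that low these counts do not set either chromosome apart. The 40 listed genes nearest csf1rb, 20 on each side, had log2 differences from -0.37 to 0.76 and a median of -0.03. Of these 40, 2 had an unadjusted p under 0.05, where 5.22% of all genes had one. The other 7 called genes were not placed, so their positions relative to csf1rb are not known here.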

How the data were processed

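Whole-brain RNA was measured in 11 libraries. Per the labels' protocols, libraries were made from pre-amplified cDNA with Tn5 and read as 50-nucleotide single ends. HISAT2, edgeR and the build GRCz10 are named in the submitters' processing notes; the sources used here do not give versions, gene counting or strand handling. Values in the deposited signal table are CPM, scaled per library by the authors (factors 0.963 to 1.04, equal to recomputed TMM factors). All values (100% within 0.001 reads) were whole multiples of 1 read, so reads could be recovered. All listed genes were above 1 CPM in 3 or more libraries.

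Genes were tested with limma 3.58.1 (R 4.3.3) on log2(CPM + 1), with a pseudocount of 1 and a mean-variance trend, in 1 fit of the 4 genotypes without a block, adjusted by Benjamini-Hochberg over 16536 genes; adjusted p-values are limma's unless another tool is named. This scale understates differences of low genes. edgeR 4.0.16 and DESeq2 1.42.0 were run on recovered reads as alternatives. For this comparison the authors also deposited log2 fold changes and p-values (adjusted), which are quoted only where named. The test was tested on simulated data. Intervals on reads and the floor of 3 reads reflect counting error alone, because amplified reads that carry no molecular identifier are not independent.

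Named were the receptors and ligands, called genes (up to 12 per direction, mean log2 of at least 1, no overlap; places left went to the smallest p), up to 3 members of each list, and chosen microglia genes. spi1a, fcer1gl, marco, stab1, mrc1a, c1qc, apoc1 and the uncalled family members were added after their values were seen. There were 35 lists with 859 symbols, 674 of them matched. The members and lists were chosen with earlier results of these data known, so they are described by counts and medians only. Alternatives comprised other pseudocounts, filters, scalings, tests, the replicate block and libraries left out. RefSeq's GRCz12tu annotation gave chromosomes and gene order only. 1 list member is not reported here by name and is not drawn.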

Additional observations from a re-analysis of the deposited data

How the results depend on the processing

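The count of 14 called genes kept within 1.5 times under 3 other pseudocounts, the filter at 1 CPM, the fit of the 6 libraries alone, edgeR's quasi-likelihood test (16) and both other scalings. These share all 14 genes except the 6 libraries alone (9) and edgeR and the pseudocounts of 0.1 and 3 (12 each). It was 8 with genes above 5 CPM only, where 13386 genes were tested, 98 with DESeq2 (14 shared), 5 without the mutant libraries numbered 2, an alternative added after the data were seen, and 8 to 36 with 1 library left out. The count of 0 for the difference between steps became 2 and 4 with pseudocounts of 0.5 and 0.1, 4 with edgeR, 42 with DESeq2, 2 without the libraries numbered 2, and 0 to 8 with 1 library left out. Apart from the filter, which changed the number of genes tested, and the fits with fewer libraries, the cause was not tested.

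Deviations from the group means of same-numbered double-mutant and csf1rb-heterozygous libraries correlated at 0.256, 0.311 and 0.0605 for numbers 1, 2 and 3. Libraries of unlike numbers are not given beside these, so the values cannot decide whether the numbers pair the samples. An unadjusted p under 0.05 was found by limma for 1310 genes with the number as a block over all genotypes, against 864 without it. With the replicate number as a block, 21 genes were called over all genotypes (13 of the 14) and 6 over the 6 libraries alone (5 of the 14, cybb not among them at an adjusted p of 0.0596), and the difference between steps was called for 8; csf1rb was at -0.29 under the block, which cannot move a balanced difference, and was not called. With 1 library left out csf1rb ranged from -0.57 to -0.13, and it was -0.65 without the libraries numbered 2.

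Of 1276 values of 69 named genes under the alternatives, 1163 kept direction and side of the threshold, 57 lost and 49 gained a call, and 7 reversed. The reversals, all of uncalled genes, were hexb without double-mutant replicate 1 (0.0016; range with 1 library left out -0.16 to 0.0016), csf1a without double-mutant replicate 2 (0.056), without csf1rb-heterozygous replicate 2 (0.081) and without the libraries numbered 2 (0.15; range -0.098 to 0.081), il34 without double-mutant replicate 3 (-0.012) or csf1rb-heterozygous replicate 3 (-0.088; range -0.088 to 0.26), and gh1 without csf1rb-heterozygous replicate 1 (0.22; range -1.30 to 0.22). The microglia and macrophage median stayed between -0.93 and -0.25 in the 19 alternatives, with the median of all genes within 0.015 of 0. Depth limits the genes of few reads, such as csf1ra, c1qa and mhc2dab.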

Other observations

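DESeq2 on the recovered reads, the most permissive of the tests run, called 8 of the 42 listed microglia and macrophage members lower. By limma and by edgeR's quasi-likelihood test it was 1 each. Over all 16531 genes it tested, DESeq2 called 98, of which 43 were lower and 55 higher. Among the 8 members were cd74a (adjusted p = 9.17e-05), lcp1 (0.00197), spi1a (0.00211), spi1b (0.00431), ccl34b.1 (0.00922) and coro1a (0.0113), each from DESeq2. It also called mhc2dab higher (adjusted p = 0.00127). By edgeR's quasi-likelihood test these genes had adjusted p = 0.144, 0.16, 0.157, 0.2, 0.277, 0.268 and 0.112 in the same order, so their calls depend on the tool.

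Outside the microglia, 2 centrosome genes stood in opposite directions without a call by limma. They were named for having the smallest p-values of the centrosome and cilium list, whose median was 0.01, with 12 of 25 below 0. cep135 stood at 13.5, 42.1 and 29.0 CPM in double-mutant and 59.3, 93.8 and 57.9 CPM in csf1rb-heterozygous brains (-1.39, adjusted p = 0.32), with controls at 15.2 and 10.7 CPM. cep152 stood at 6.48, 3.81 and 4.75 CPM in double-mutant and 1.74, 1.53 and 3.83 CPM in csf1rb-heterozygous brains (0.88, adjusted p = 0.534), which overlapped. ptgdsb.1, a prostaglandin D synthase gene, stood at 28.4, 30.2 and 42.3 CPM in double-mutant and 66.2, 76.2 and 47.9 CPM in csf1rb-heterozygous brains (-0.89, adjusted p = 0.249). DESeq2 called cep135 (adjusted p = 0.0117) and ptgdsb.1 (adjusted p = 0.00657) but not cep152, and edgeR's quasi-likelihood test called none of them.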
